A study of Mus musculus with 6 samples.

Results

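Type 1 conventional dendritic cells (cDC1) were followed as 85 cell barcodes at day 13 and 16 at day 19, which is 101 of 19871 barcodes that passed the depth and mitochondrial limits. A barcode marks 1 droplet, and a unique molecular identifier (UMI) marks 1 captured molecule. A barcode was taken as cDC1 if it had at least 2000 gene UMIs, at most 10% mitochondrial UMIs, at least 2 UMIs of Xcr1 and Clec9a together, at least 5 UMIs of H2-Ab1, none of the microglial genes P2ry12 and Tmem119, and at most 2 UMIs of Fscn1, which marks matured dendritic cells. It also had to be absent from the T cell receptor contig tables of its day. These counts chose the members, so the levels of these genes are a description. The members were compared with barcodes of the same day that met the same limits but had at least 2 UMIs of Cd209a, a gene of type 2 conventional dendritic cells (cDC2) and monocyte-derived cells, and none of Xcr1 and Clec9a. Each cDC1 barcode was matched to 1 such barcode of like depth, and these are called Cd209a barcodes below.

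cDC1 are a dendritic cell lineage that depends on the transcription factors Irf8, Batf3 and Id2. They take up material from dead cells and present it on MHC class I to CD8 T cells, a process called cross-presentation. Xcr1 is their receptor for the chemokine Xcl1 made by T and natural killer cells, Clec9a is a receptor for dead cells, and Flt3 is the receptor for the cytokine that dendritic cells need to develop.

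The cells came from brain tumors of CT2A, a mouse glioma line, growing intracranially in wild-type C57BL/6J mice of 6 to 8 weeks. Tumors of 16 mice were taken early, at day 13, with 4 mice pooled for each replicate, and tumors of 4 mice late, at day 19. Cells were sorted for CD3 with CD4 or CD8, so dendritic cells are what passed a T cell gate, and their number says nothing of their number in the tumor. Each day was 1 droplet capture, from which libraries of gene expression, antibody tags and T cell receptors were made. Day, capture, pooling and staining therefore cannot be told apart, and no p-value is given. Values in parentheses after a level or ratio are 95% intervals for counting error only, and molecules of 1 droplet are not independent samples of a condition.

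The matrices held 144565182 and 81224453 gene UMIs. The day-13 members had 1566344 UMIs in all, with a lowest, median and highest barcode of 3008, 14105 and 52944. The day-19 members had 204683 UMIs, with 7558, 11026 and 33092, and the deepest barcode gave 16.2% of them. cDC1 made up 1.52% of the barcodes outside the contig tables at day 13 (1.22 to 1.88) and 0.865% at day 19 (0.495 to 1.40). Of cDC1 and Cd209a barcodes together they were 34.7% (28.7 to 41.0) and 23.5% (14.1 to 35.4), and the intervals of the days overlap. No barcode was a member on both days. Doublets were not called: 40 of the day-13 members and 2 of the day-19 members carried T cell RNA, which is at least 1 UMI of Cd3d, Cd3e, Cd3g, Trac, Trbc1 or Trbc2, against 52 and 3 Cd209a barcodes.

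Clec9a was found in more members than Xcr1. At day 13 Xcr1 had 149 UMIs in 39 of 85 barcodes, and Clec9a had 238 in 78. At day 19 Xcr1 had 8 UMIs in 4 of 16 barcodes, and Clec9a had 44 in 16. Levels below are UMIs of a gene for each 1000000 summed UMIs of its group (CPM). Xcr1 was at 95.1 and 39.1 CPM and Clec9a at 152 and 215 CPM, so most day-19 members were picked through Clec9a alone: 12 of 16, against 46 of 85 at day 13. Both genes together were seen in 32 and 4 members. Flt3, a marker of the label that the rule did not use, had 103 CPM in cDC1 and 56.8 CPM in Cd209a barcodes at day 13, a log2 ratio of 0.87 (0.48 to 1.26), and 176 and 101 CPM at day 19, a log2 ratio of 0.79 (-0.02 to 1.64). Members just inside the limit, with 2 UMIs of Xcr1 and Clec9a, had Irf8 at 688 and 1299.8 CPM at the 2 days, and barcodes just outside, with 1 UMI, at 269 and 332 CPM.

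The cDC1 lineage genes that the rule did not use were high in the members on both days. A list of 30 such genes was read, and a gene counted as higher or lower past 2-fold if its 2 sums together held at least 50 UMIs and its log2 ratio passed 1 or -1. At day 13, 17 of 22 genes with enough UMIs were higher in cDC1 and none was lower, with a median log2 ratio of 2.04. Of all 6243 genes with enough UMIs, 2.26% were higher and 1.86% lower, with a median of 0.05. At day 19, 7 of 10 were higher, with a median of 2.02, where 2.99% of all 1172 genes were higher and 6.06% lower. These genes are co-expressed with the genes of the rule in any cDC1, so their ratios check the name of the cells and are not a test. Without T cell RNA, C1q RNA over 5 UMIs or members with at least 2 Cd209a UMIs, the day-13 median was 2.36 and the day-19 median 2.20.

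Irf8, the factor that sets the cDC1 fate, had 1694 UMIs in cDC1 and 249 in Cd209a barcodes at day 13. Per barcode its lowest, median and highest level was 0, 699.9 and 6161 CPM in cDC1 and 0, 81.8 and 882 CPM in Cd209a barcodes. The ranges overlap, and the cDC1 median lies below the highest Cd209a barcode. The log2 ratio of the sums was 2.73 (2.54 to 2.93). At day 19 the levels per barcode were 0, 1335 and 3995 CPM and 0, 223 and 2415 CPM, with a log2 ratio of 1.89 (1.54 to 2.25). The smaller ratio goes with a higher level in the day-19 Cd209a barcodes, 420.1 CPM against 163 CPM at day 13, while cDC1 had 1554 and 1081 CPM. The barcodes were also split by the 4 multiplexing tags, each by its tag with the most UMIs. At day 13 Irf8 was at 1112, 1137, 990.1 and 860.2 CPM in cDC1 and 202, 166, 160.3 and 125 CPM in Cd209a barcodes. Every part gave the same direction and the parts did not overlap. The split is coarse, as cDC1 barcodes had a median of 11 tag UMIs at day 13 and 4 at day 19. At least 80% of the tag UMIs were on 1 tag in 35 of 85 members at day 13 and 11 of 16 at day 19. At day 19 the tags held 1, 4, 5 and 4 members. With barcodes thinned to 2000 UMIs, Irf8 was seen in 65.9% (54.8 to 75.8) of cDC1 at day 13 and 23.5% (15.0 to 34.0) of Cd209a barcodes. Among 2000 barcodes drawn at random from those of the contig tables, which are T cells, the share was 11.5%. Median depths before thinning were 14105, 13584 and, over all T cell barcodes, 5401 UMIs. Without thinning Irf8 was seen in 76 and 53 of the 85 barcodes of the first and second kind and in 2066 of all 8195 T cell barcodes.

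Batf3, the partner that keeps Irf8 expression on, was at 113 CPM in cDC1 and 28.7 CPM in Cd209a barcodes at day 13, a log2 ratio of 1.98 (1.49 to 2.49). At day 19 it was at 200.3 and 24.1 CPM, from 41 and 5 UMIs. Id2, which restrains the plasmacytoid fate, was at 296 and 125 CPM at day 13 and 474 and 106 CPM at day 19, with log2 ratios of 1.24 (0.99 to 1.49) and 2.16 (1.48 to 2.90). Nfil3, which acts upstream of these factors in development, was at 81.7 and 75.7 CPM at day 13, a log2 ratio of 0.11 (-0.26 to 0.49). Without tag 1 the day-13 ratio of Id2 was 0.93. Of the 4 factors, 3 were thus higher in cDC1 at day 13 with all barcodes, and the interval of Nfil3 held 0.

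**Figure D1:**
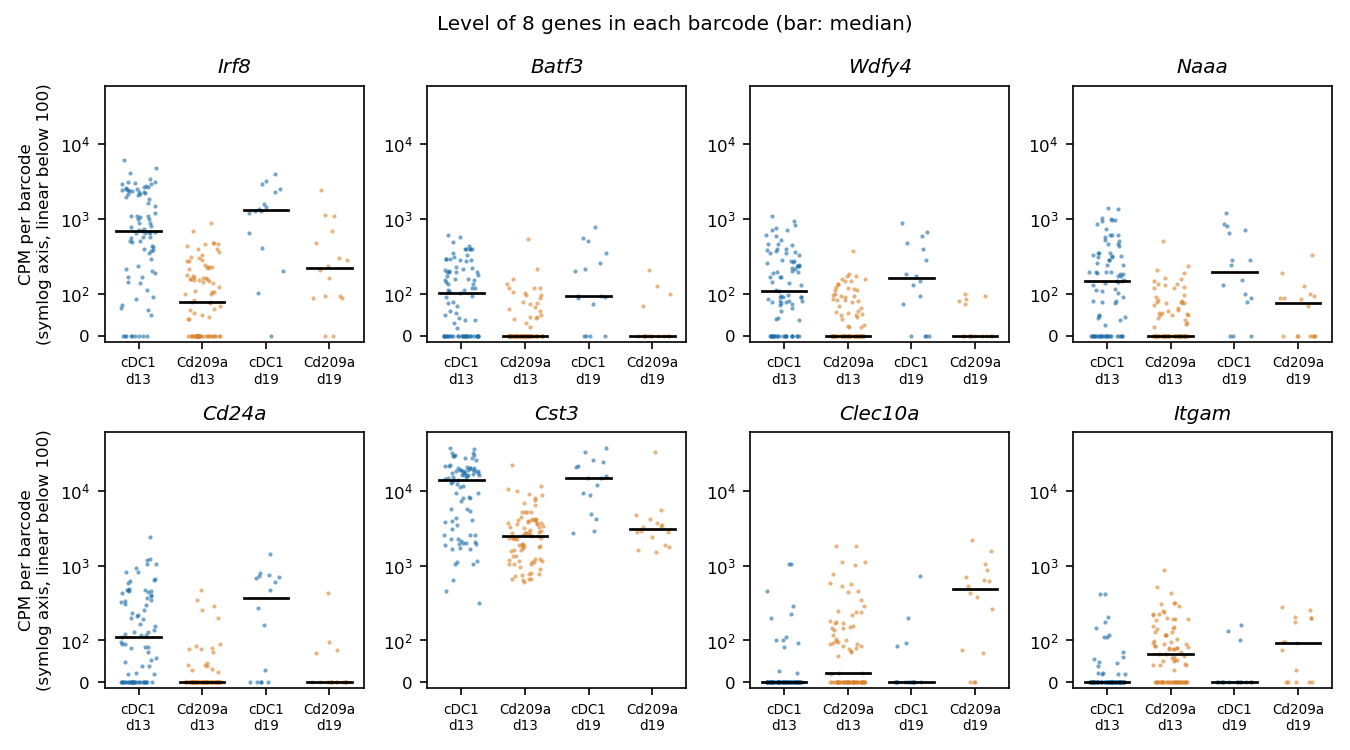
Level of 8 genes in each barcode, as CPM on a symlog axis that is linear below 100, for cDC1 (blue) and depth-matched Cd209a barcodes (orange) at day 13 (85 each) and day 19 (16 each); black bars are medians. Irf8 and Cst3 sit higher in cDC1 on both days, Clec10a and Itgam sit higher in Cd209a barcodes, and all 8 genes overlap between the groups.

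Other genes of the cDC1 list are described next by their known roles. Wdfy4, a protein needed for cross-presentation of cell-associated antigen, was at 172 CPM in cDC1 and 39.8 CPM in Cd209a barcodes at day 13, and at 254 and 24.1 CPM at day 19. Its log2 ratios were 2.11 (1.70 to 2.53) and 3.40 (2.08 to 5.08). Naaa, a lysosomal amidase of lipid mediators, was at 225 and 43.7 CPM at day 13, and at 362 and 62.8 CPM at day 19. Ppt1, a lysosomal thioesterase, was at 341 and 41.8 CPM, and then at 322 and 43.5 CPM, with log2 ratios of 3.03 (2.65 to 3.43) and 2.89 (1.88 to 4.08). Rab7b, a small GTPase of late endosomes, had a log2 ratio of 2.76 (1.91 to 3.72) at day 13. Snx22, a sorting nexin, had 163 UMIs in cDC1 and 1 in Cd209a barcodes, a log2 ratio of 7.32 (4.82 to 12.63). Gcsam had 62 and 0 UMIs, a log2 ratio of at least 4.34 with 3 counts as the floor over the group. The counting intervals given for Wdfy4, Ppt1, Rab7b and Snx22 lay above 0, and the value of Gcsam is a bound. Naaa had log2 ratios of 2.36 at day 13 and 2.53 at day 19. A separate list of genes for lipid handling and the uptake of dead cells was read as well. At day 13, 1.86% of all 6243 genes with enough UMIs were lower. Of 10 genes of the list none was higher then and 2 were lower, with a median of 0.15. These were Abcg1, a cholesterol exporter, at -1.18 (-1.73 to -0.66), and Nr1h3, the nuclear receptor LXR alpha, at -1.28 (-2.13 to -0.47). Abcg1 was at -0.77 with contig barcodes kept, and Nr1h3 at -0.80 against all Cd209a barcodes. At day 19 none of its genes had enough UMIs.

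The nucleic acid sensor Tlr3, which reads double-stranded RNA, had 74 UMIs in cDC1 and 16 in Cd209a barcodes at day 13, a log2 ratio of 2.18 (1.38 to 3.06). Tlr12, a sensor of parasite profilin, had 56 UMIs in cDC1 against 6, a log2 ratio of 3.19 (1.98 to 4.70). Of all genes with enough UMIs, 2.26% of 6243 were higher at day 13 and 6.06% of 1172 were lower at day 19. Among 13 sensing genes with enough UMIs at day 13, Tlr3 and Tlr12 were the 2 that were higher, none was lower, and the median was -0.14. At day 19 none of 5 was higher and 1 was lower, with a median of -0.41: Ddx58, the sensor RIG-I, was at -1.59 (-2.45 to -0.80), and at -0.89 against all Cd209a barcodes. At the surface, Cd24a, a glycoprotein used to sort cDC1, was at 204 and 22.2 CPM at day 13, and at 371 and 38.6 CPM at day 19, with log2 ratios of 3.20 (2.69 to 3.75) and 3.26 (2.21 to 4.53). Free RNA of Cd24a, read from barcodes of 10 to 100 UMIs, was at 8.09 and 3.76 CPM. Itgae, the CD103 integrin chain of cDC1 in tissues, was at 159.6 and 13.1 CPM at day 13, a log2 ratio of 3.61 (2.95 to 4.35), and was seen in 41 of 85 members and 2 of 16 at day 19. Btla, an inhibitory receptor, and Kit, the stem cell factor receptor, had log2 ratios of 1.62 (1.00 to 2.27) and 1.61 (1.03 to 2.22) at day 13. Cd207, the langerin gene, had no UMI on either day, which allows up to 1.92 and 14.7 CPM.

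The other genes of the list were less abundant or nearer to the Cd209a barcodes. Ifi205, an interferon-inducible gene of the p200 family, was at 861 CPM in cDC1 and 417 CPM in Cd209a barcodes at day 13, a log2 ratio of 1.05 (0.91 to 1.18), and 0.85 (0.51 to 1.20) at day 19. Ly75, the DEC-205 receptor for antigen uptake, had 50 and 21 UMIs, a ratio of 1.22 (0.46 to 2.03). Jaml, an adhesion molecule, had a ratio of 0.87 (0.62 to 1.11) at day 13 and 1.04 (0.34 to 1.78) at day 19, and Havcr2, the TIM-3 receptor, 0.79 (0.42 to 1.18) at day 13. Ckb, the brain-type creatine kinase, had 0.27 (0.06 to 0.47) and 0.78 (0.23 to 1.34). 3 of these calls ended without 1 tag: at day 13 Ifi205 was at 0.93 without tag 1 and Ly75 at 0.60 without tag 4, and at day 19 Jaml was at 0.65 without tag 4. Too few UMIs for a ratio past the limit of 50 were counted at day 13 for Cadm1, Plet1, Cd36, Plpp1 and Tlr11, among others, with 10, 32, 32, 24 and 6 UMIs in cDC1 and 0, 13, 7, 2 and 1 in Cd209a barcodes. All 5 thus had more UMIs in cDC1.

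Cd8a, which marks cDC1 of lymphoid organs and also CD8 T cells, differed with T cell RNA. At day 13 it was at 202 CPM in the 40 members with T cell RNA and at 17.9 CPM in the 45 without. At day 19 it was at 904 CPM in the 2 members with T cell RNA and 12.6 CPM in the other 14. Its level was thus higher with T cell RNA on both days.

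Outside the lists, the genes higher in cDC1 on both days were led by Cst3, which encodes the protease inhibitor cystatin C. Cst3 was at 319, 13712 and 37566 CPM in the lowest, median and highest cDC1 barcode at day 13 and 599.6, 2506 and 22186 CPM in Cd209a barcodes, with a log2 ratio of the sums of 1.89 (1.84 to 1.93). At day 19 the ratio was 1.78 (1.67 to 1.88). Psap, the precursor of lysosomal lipid-binding proteins, had log2 ratios of 1.07 (1.00 to 1.14) and 1.60 (1.40 to 1.81). Ptms, Acadl, Plbd1 and Mpeg1 followed with ratios from 0.95 to 1.33 over both days. Each of these 6 genes was higher in cDC1 in the barcodes of all 4 multiplexing tags at day 13. At day 19 Acadl was at 0.77 without tag 4, Plbd1 at 0.78 without tag 3 and Ptms at 0.97 without tag 2. In all, 12 of 1172 genes were higher past 2-fold on both days, which is 1.02%, and 9 were lower, which is 0.768%.

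Genes of cDC2 and monocyte-derived cells were lower in cDC1. Of 18 listed genes, 9 of 16 with enough UMIs were lower at day 13 and none was higher, with a median of -1.21. Of all genes with enough UMIs, 1.86% of 6243 were lower at day 13 and 6.06% of 1172 at day 19. At day 19, 2 of 5 listed genes were lower, with a median of -0.84, and of -1.64 without the barcodes of multiplexing tag 4. The 2 were Clec10a and Tmem176b, a membrane protein, and Tmem176b was at -1.31 but at -0.74 without tag 1 and -0.84 without tag 2, which leaves 1 of the 2. The comparison barcodes were chosen by Cd209a, a gene of the same cells, so this too describes the choice. Clec10a, a lectin of cDC2, was at 30.0 CPM in cDC1 and 115 CPM in Cd209a barcodes at day 13, and at 63.5 and 483 CPM at day 19, with log2 ratios of -1.94 (-2.43 to -1.47) and -2.93 (-3.89 to -2.09). Itgam, the CD11b integrin chain, was at 23.0 and 92.7 CPM at day 13, a log2 ratio of -2.01 (-2.58 to -1.48). Sirpa, the inhibitory receptor that marks cDC2, and Csf1r, the growth factor receptor of macrophages and monocytes, had log2 ratios of -1.30 (-1.76 to -0.86) and -1.34 (-1.67 to -1.02). Mgl2 had 4 and 142 UMIs at day 13, in 3 and 14 barcodes. Irf4, the factor of cDC2, had a log2 ratio of -0.86 (-1.68 to -0.07), within 2-fold.

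Outside the lists, Plaur, the urokinase receptor, was at 98.3 CPM in cDC1 and 234 CPM in Cd209a barcodes at day 13, and at 68.4 and 473 CPM at day 19, with log2 ratios of -1.25 (-1.53 to -0.97) and -2.79 (-3.71 to -1.98). Wfdc17, a secreted protein of macrophages, had ratios of -1.37 (-1.58 to -1.17) and -1.08 (-1.51 to -0.66). Without tag 2 the ratios of Wfdc17 were -0.72 and -0.80, and without tag 4 the day-13 ratio of Plaur was -0.89. Cdkn1a, the cell cycle inhibitor p21, and Tgfbi, a matrix protein induced by TGF-beta, were lower too, at -0.82 and -0.90 at day 13 and -1.98 and -0.98 at day 19. These 4 genes were lower in cDC1 on both days, though Tgfbi was within 2-fold on both days and Cdkn1a at day 13.

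**Figure D2:**
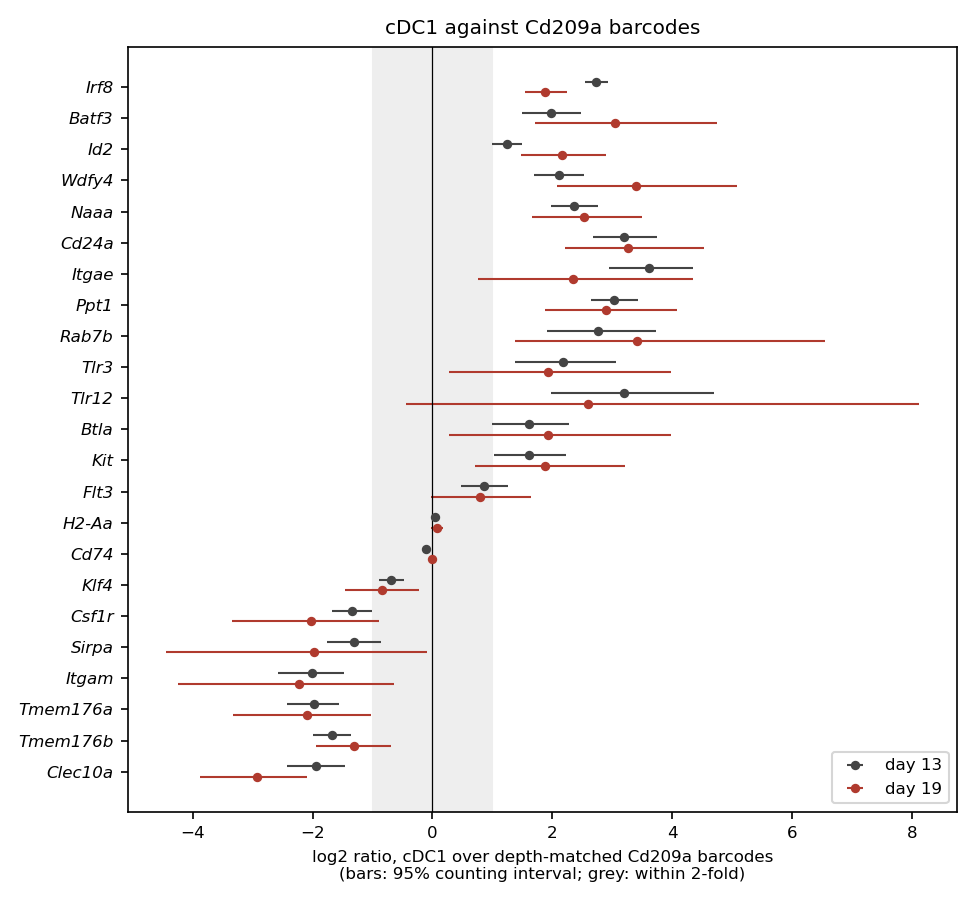
log2 ratio of summed CPM, cDC1 over depth-matched Cd209a barcodes, for 23 genes at day 13 (grey) and day 19 (red); bars are 95% counting intervals and the shaded band is within 2-fold. The points of the genes from Irf8 to Kit lie right of 1 on both days, H2-Aa and Cd74 lie near 0, and those from Csf1r down lie left of -1, while the day-19 intervals of Tlr3, Tlr12, Btla, Kit, Itgae, Sirpa, Itgam, Csf1r and Tmem176b reach into the band.

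The members were not uniform. Summed over the 30 cDC1 genes, the lowest, median and highest member was at 648, 5287 and 13702 CPM at day 13 and 309, 6335 and 11551 CPM at day 19, and Cd209a barcodes were at 316, 1657 and 4366 and 416, 1814 and 4615 CPM. 49 of 85 members at day 13 and 11 of 16 at day 19 lay above every Cd209a barcode of their day. In 14 members at day 13 and 4 at day 19 the 18 cDC2 genes summed higher than the 30 cDC1 genes.

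Members that also had at least 2 Cd209a UMIs, 17 at day 13 and 5 at day 19, had lower cDC1 genes as a group than the other members. They had no Xcr1 UMI on either day. Irf8 was at 172 CPM in them and 1269 CPM in the other members at day 13, and at 710.4 and 1874 CPM at day 19. The 30 cDC1 genes summed to 1877 and 5555 CPM at day 13, and to 4120 and 7191 CPM at day 19. The cDC2 genes went the other way, at 2404 and 993 CPM, then 2060 and 640.3 CPM. Single barcodes differed: 1 of the 17 and 2 of the 5 lay above every Cd209a barcode in the sum of cDC1 genes, and in 11 and 3 the cDC2 genes summed higher than the cDC1 genes. Without these 17 and 5 members the day-13 median of the cDC1 genes against Cd209a barcodes was 2.24 and that of the cDC2 genes -1.50, and at day 19 they were 2.34 and -1.83.

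T cell RNA went with lower cDC1 genes too. At day 13, Irf8 was at 765 CPM in members with T cell RNA and 1652 CPM in those without, and Cd24a at 94.3 and 401 CPM. Apoe, a macrophage gene, was at 2173 and 55.5 CPM. The median depth was 21482 UMIs with T cell RNA and 12041 without. The summed level of 13 T cell genes was 0 in 37 of 85 members at day 13 and 12 of 16 at day 19. Against Cd209a barcodes, none of 13 T cell genes was past 2-fold at day 13, with a median of -0.45, and of 11 macrophage genes C1qc and Trem2 were lower, with a median of -0.57. C1qc was at -0.83 without tag 2 and Trem2 at -0.80 without tag 3. The 15 macrophage genes summed to a median of 496 CPM per cDC1 barcode and a highest of 49746 CPM. Of plasmacytoid dendritic cell genes, Siglech and Klk1 were higher in cDC1 at day 13, of 6, and 1 barcode gave 88.6% of the Klk1 UMIs. Of all 6243 genes with enough UMIs at day 13, 2.26% were higher and 1.86% lower in cDC1. The part of T cell and macrophage RNA in the differences above was not tested.

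**Figure D3:**
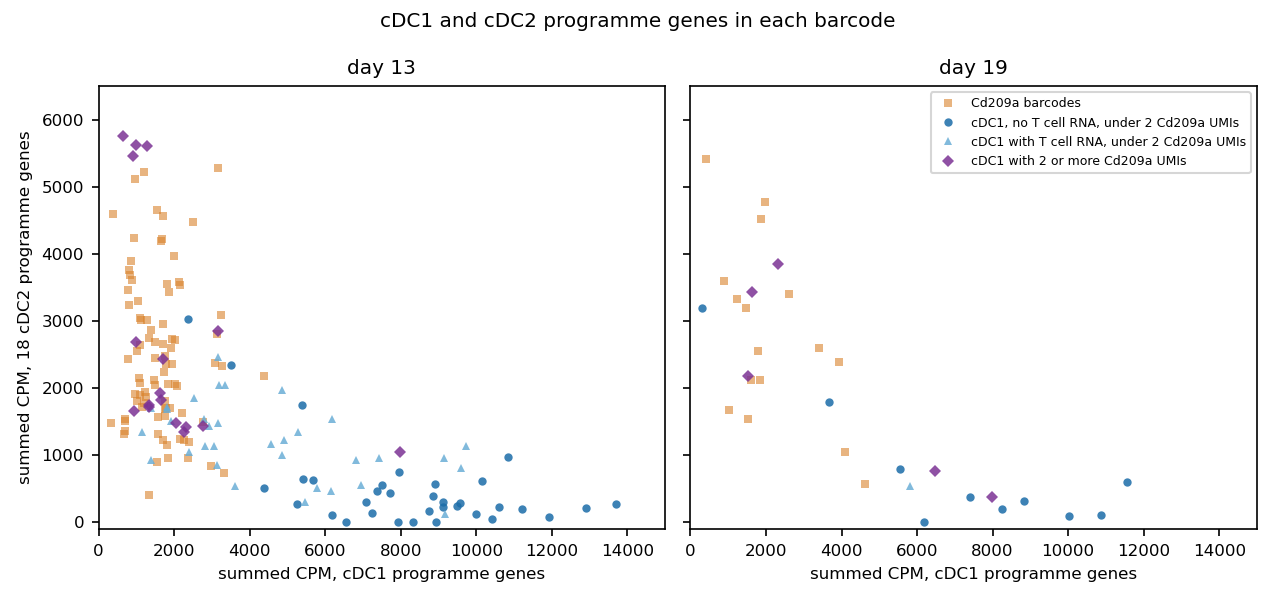
Each barcode by the summed CPM of 30 cDC1 genes (x axis) and 18 cDC2 genes (y axis), by day; orange squares are Cd209a barcodes, blue circles and light blue triangles are cDC1 members without and with T cell RNA, and purple diamonds are members with at least 2 Cd209a UMIs. Most diamonds lie among the Cd209a barcodes, and the circles reach the far right with few cDC2 transcripts.

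MHC class II genes, which load peptide for CD4 T cells, were at like levels in both groups, and the rule asked both for H2-Ab1. Of 14 genes none was past 2-fold at day 13, with a median of 0.01, and none of 8 at day 19, with a median of -0.04. Cd74, the invariant chain, was at 20988 CPM in cDC1 and 22558 CPM in Cd209a barcodes at day 13, and at 23499.8 and 23512 CPM at day 19. At day 13, 2.26% of all 6243 genes with enough UMIs were higher in cDC1. Of 26 genes for cross-presentation and the MHC class I pathway, 3 were higher then and none lower, with a median of 0.15. These were Wdfy4, Rab43, a small GTPase used in cross-presentation, and Dnase1l3, a secreted DNase, with log2 ratios of 2.11, 1.14 and 1.07. Without tag 4, Rab43 and Dnase1l3 were at 0.93 and 0.79. Rab43 was not past 2-fold at day 19, at 0.29 (-0.41 to 1.00). At day 19, Wdfy4 was higher and Cybb, the NADPH oxidase subunit of phagosomes, lower, of 20 genes. Cybb was at 97.7 CPM in cDC1 and 309 CPM in Cd209a barcodes then, a log2 ratio of -1.66 (-2.46 to -0.92), and at 259 and 379 CPM at day 13. Tap1, the peptide transporter for MHC class I, was within 2-fold at 0.18 (0.01 to 0.35) and -0.20 (-0.63 to 0.23).

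Of all 6243 genes with enough UMIs at day 13, 1.86% were lower in cDC1. Of 17 cytokine and chemokine genes 4 were lower then and none higher, with a median of -0.50. These were Tnf, Cxcl10, Ccl6 and Ccl9, with log2 ratios from -2.15 to -1.07. Without the barcodes of multiplexing tag 2 the ratios of Tnf and Cxcl10 were -0.34 and -0.71, and without those of tag 4 that of Ccl6 was -0.92, all within 2-fold. At day 19 the lower ones were Cxcl10, Ccl4 and Ccl6, 3 of 8, where 6.06% of all 1172 genes were lower. Without tag 2 the day-19 ratio of Ccl4 was -0.77. Cxcl10, a chemokine that draws CXCR3-bearing T cells, was at 429 CPM in cDC1 and 1067 CPM in Cd209a barcodes at day 13, and at 523 and 2119.9 CPM at day 19, with log2 ratios of -1.31 (-1.45 to -1.18) and -2.02 (-2.34 to -1.71). Within the members it was higher in those with at least 2 Cd209a UMIs: 1189 CPM against 273 CPM in the others at day 13, and 1865 against 13.5 CPM at day 19. Cxcl9, a chemokine for the same receptor, was within 2-fold, at 301 and 214 CPM at day 13, and at 219.9 and 304 CPM at day 19. Its log2 ratio was 0.49 at day 13 and past 2-fold higher without tag 2, and -0.47 at day 19 and -1.64 without tag 4, so being within 2-fold depended on the tags kept. Il12b, the p40 chain of interleukin 12, had 19 UMIs at day 13 and 17 at day 19, in 2 members each day, and 1 barcode gave 89.5% and 88.2% of them. The Il12b level therefore describes 1 droplet a day. Ifnb1, the interferon beta gene, had no UMI in the members on either day.

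Costimulatory genes were within 2-fold at day 13 with 1 exception. Cd86, the ligand of CD28 and CTLA4, was at 193 and 199.7 CPM at day 13, a log2 ratio of -0.05 (-0.28 to 0.19). Cd40 was at 164 and 165 CPM, a ratio of -0.01 (-0.27 to 0.25), and Cd274, the PD-L1 gene, at 83.0 and 83.5 CPM, a ratio of -0.01 (-0.37 to 0.35). Of 13 genes with enough UMIs only Btla was past 2-fold at day 13. Genes of maturing dendritic cells, which the limit on Fscn1 keeps low, had a median of 0.03 and none of 12 past 2-fold at day 13, and at day 19 a median of -0.60 with 1 of 2 lower, Marcksl1 at -1.39, and at -0.52 without tag 2. Of 15 cell cycle genes, 3 were higher in cDC1 at day 13, namely Mcm2, Ccnb2 and Ube2c, against 2.26% of all 6243 genes. The median of the list was 0.34. None of these 3 genes was past 2-fold without tag 3, where Mcm2 was at 0.45, Ccnb2 at 0.55 and Ube2c at -0.10, and without tag 2 Ube2c was at -0.36. The median was -0.16 without tag 2 and 1.13 without barcodes with T cell RNA. A UMI of Mki67 or Top2a was found in 28 of 85 members and 19 of 85 Cd209a barcodes, and at day 19 in 1 and 2 of 16.

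Type I interferon-response genes were lower in cDC1 at day 19 than at day 13, and the gap to Cd209a barcodes varied with the barcodes kept. Type I interferon acts through the factor ISGF3, which binds the interferon-stimulated response element in the promoters of genes such as Ifit1, Ifit3, Rsad2 and Oas3. Of 20 listed genes 15 had a RefSeq promoter, and 7 of these held the core of this element, GAAANNGAAA on either strand, in the 250 bases before the start. That is 46.7%, against 3.46% of all 27018 genes with a promoter in the table. Of the 24 cDC1 genes with a promoter, 3 held it. Of 12 interferon gamma genes with a promoter 9 held it, of 23 cross-presentation genes 2, and of 13 cDC2 genes none. The 250 bases before the start are shown for the 4 genes whose day difference is described first, 5′ to 3′ on the strand of the gene, with each match in capitals. They lie at chr19:34640639-34640888 on the plus strand for Ifit1, chr19:34583279-34583528 on the plus strand for Ifit3, chr12:26456453-26456702 on the minus strand for Rsad2 and chr5:120777660-120777909 on the minus strand for Oas3 (RefSeq, GRCm38.p6). Isg15, Stat2 and Bst2 also held the element core, with log2 ratios of day 19 to day 13 in cDC1 of -0.31, 0.29 and -1.01. Of the type I genes without it, Ifit2, Ifi44, Cmpk2 and Xaf1 had -1.22, -1.30, -1.45 and -1.44. Irf7, Oasl2, Ifih1 and Isg20, also without it, had -0.55, -0.68, -0.33 and -0.63. A link of the element to the day difference was not tested. A match is a stretch of letters and no measured binding.
Ifit1: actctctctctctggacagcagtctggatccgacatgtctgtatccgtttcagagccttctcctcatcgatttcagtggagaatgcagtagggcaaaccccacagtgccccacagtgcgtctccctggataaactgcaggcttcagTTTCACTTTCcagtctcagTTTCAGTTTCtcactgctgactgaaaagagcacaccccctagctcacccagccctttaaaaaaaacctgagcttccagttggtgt
Ifit3: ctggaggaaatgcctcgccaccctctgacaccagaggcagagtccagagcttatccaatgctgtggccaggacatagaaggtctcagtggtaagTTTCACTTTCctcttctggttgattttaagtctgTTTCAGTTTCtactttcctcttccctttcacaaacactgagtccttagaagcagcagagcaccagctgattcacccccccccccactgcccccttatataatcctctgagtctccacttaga
Rsad2: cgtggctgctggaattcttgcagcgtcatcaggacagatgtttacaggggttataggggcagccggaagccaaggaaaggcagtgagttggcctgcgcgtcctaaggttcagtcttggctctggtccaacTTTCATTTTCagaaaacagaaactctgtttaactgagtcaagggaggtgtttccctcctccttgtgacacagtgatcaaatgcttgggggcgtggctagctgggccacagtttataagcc
Oas3: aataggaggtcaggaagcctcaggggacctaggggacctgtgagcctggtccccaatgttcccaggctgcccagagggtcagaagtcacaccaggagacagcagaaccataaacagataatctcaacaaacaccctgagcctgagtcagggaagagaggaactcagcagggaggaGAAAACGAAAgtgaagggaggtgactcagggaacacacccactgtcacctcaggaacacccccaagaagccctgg

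In cDC1, 10 of 18 type I interferon genes were lower at day 19 than at day 13, 17 had a negative ratio, and the median was -1.11. Of all 4540 genes with enough UMIs, 10.5% were lower and 1.45% higher, with a median of -0.12. These are 477 and 66 genes, and with ratios centred on that median they were 375 and 107. In Cd209a barcodes 1 of 18 was lower, Ifi44, with a median of -0.19, where 8.99% of all genes were lower and 2.11% higher. Over all 160 and 52 Cd209a barcodes, not only the matched ones, the median was -0.38. In T cell barcodes, those of the contig tables, 8 of 18 were lower, with a median of -0.91, where 1.38% of 12826 genes were lower and 3.08% higher. For 9 of 18 genes the day ratio of cDC1 lay below that of Cd209a barcodes with an interval of the difference that left out 0, and for none above. The 18 genes are those of 20 listed that the files name by these symbols.

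Ifit3, an antiviral protein, was at 506 CPM in cDC1 at day 13 and 161 CPM at day 19, and at 809 and 744 CPM in Cd209a barcodes. Per barcode the lowest, median and highest cDC1 was at 0, 199 and 4762 CPM at day 13 and 0, 0 and 1612 CPM at day 19. It was seen in 56 of 85 and 6 of 16 members, so most day-19 members had none. The log2 ratio of the days was -1.65 (-2.20 to -1.15) in cDC1 and -0.12 (-0.37 to 0.12) in Cd209a barcodes, a difference of -1.53 (-2.09 to -0.97). Over all Cd209a barcodes the day ratio was -0.63 for Ifit3 and -0.38 for Ifit1, against 0.07 for Ifit1 in the matched ones. Ifit3b, a near-identical copy, had day ratios of -4.55 (-9.86 to -2.05) in cDC1 and 0.11 in the matched Cd209a barcodes. How reads of the pair were assigned was not tested. Ifit1, which binds foreign RNA ends, fell from 235 to 58.6 CPM in cDC1 and was at 354 and 372 CPM in Cd209a barcodes, a difference of the log2 ratios of -2.07 (-2.97 to -1.17). Rsad2, the enzyme viperin, gave 333 and 127 CPM in cDC1 and 545 and 560.2 CPM in Cd209a barcodes, a difference of -1.43 (-2.06 to -0.79). Without tag 3 the day ratio of Rsad2 in cDC1 was -0.66, within 2-fold. Oas3, a sensor that makes oligoadenylate, gave 119 and 19.5 CPM and 159 and 111 CPM, a difference of -2.09 (-3.65 to -0.53). Other genes of the list had like day ratios in both kinds of barcode: Isg15 had day ratios of -0.31 in cDC1 and -0.45 in Cd209a barcodes, Irf7, the factor that amplifies the response, -0.55 and -0.45, and Bst2 -1.01 and -0.95. Without tag 1 Bst2 was at -0.86 in cDC1, and without tag 4 Ifi44 was at -0.89 where it was -1.30. Bst2 was also within 2-fold under 8 other alternatives, among them -0.58 with every barcode thinned to 2000 UMIs, -0.68 with at most 5 C1q UMIs and -0.80 without T cell RNA.

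Few droplets carry the day-19 values. At day 19 Ifit1 had 12 UMIs in 3 of 16 members, and a single barcode gave 51.5% of the Ifit3 and 46.2% of the Rsad2 UMIs. The members with at least 2 Cd209a UMIs had Ifit3 at 533 CPM and the others at 20.2 CPM, where at day 13 they had 849 and 436 CPM. Free RNA of Ifit3 was at 458 CPM at day 13 and 147 CPM at day 19, and T cell barcodes were at 519 and 190.3 CPM. At day 13 members with T cell RNA had Ifit3 at 635 CPM and those without at 274 CPM. The gap between the kinds of barcode was read over the genes with enough UMIs in both. Without T cell RNA the median day ratio was -0.63 in cDC1 and -0.14 in Cd209a barcodes, over 17 genes. With every barcode thinned to 2000 UMIs it was -0.47 in cDC1 and -0.23 in Cd209a barcodes, over 8 genes, of which 4 had the lower ratio in cDC1. With contig barcodes kept it was -0.49 in cDC1 and -0.28 in Cd209a barcodes, under all 3 filters named above -0.70 in cDC1 and -0.48 in Cd209a barcodes, and without the barcodes of multiplexing tag 3 -0.66 in cDC1 and -0.36 in Cd209a barcodes. In these 5 settings the median was lower in cDC1, by less than with all barcodes. The day ratio of Ifit3 was -0.92 without T cell RNA and -0.32 with contig barcodes kept, and that of Rsad2 -0.63 and -0.90, so neither was past 2-fold in these. The part of free RNA and of T cell RNA in the result was not tested.

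**Figure D4:**
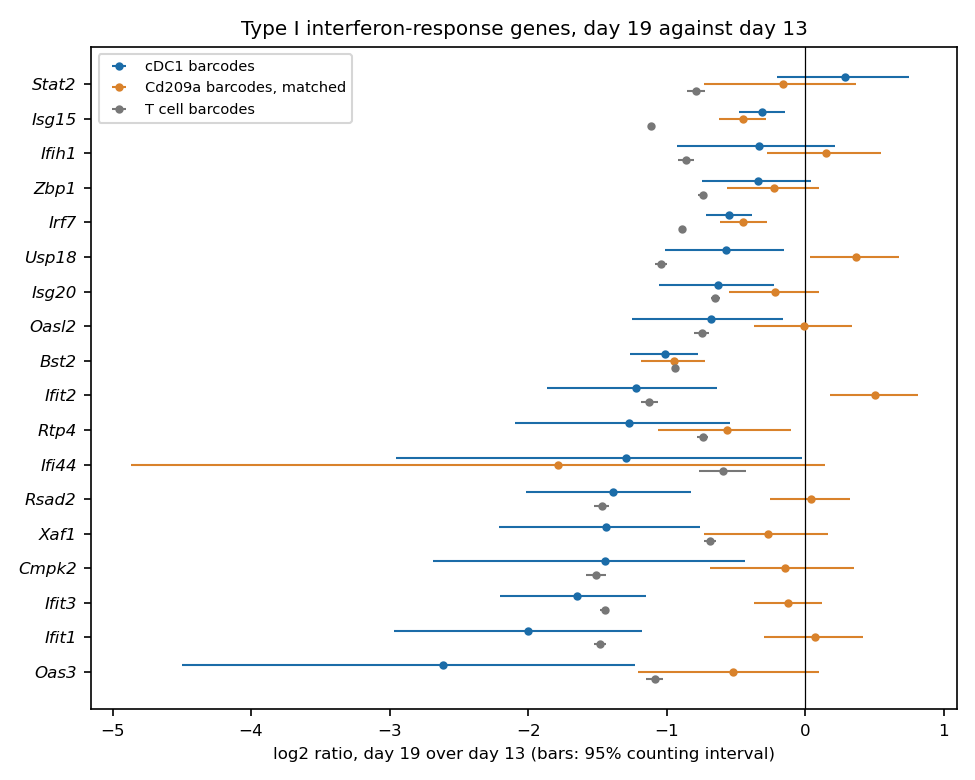
log2 ratio of summed CPM at day 19 over day 13 for the 18 type I interferon-response genes in cDC1 (blue), depth-matched Cd209a barcodes (orange) and T cell barcodes (grey); bars are 95% counting intervals. From Bst2 down to Oas3 the cDC1 points lie below -1, and the orange points lie right of the blue ones for all genes but Stat2, Isg15 and Ifi44.

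Genes induced by interferon gamma were compared in the same way. At day 19, 5 of 9 were lower in cDC1 than in Cd209a barcodes, namely Irf1, Gbp2, Gbp7, Irgm1 and Igtp, with a median of -1.23, and at day 13 none of 17, with -0.29. Of all genes with enough UMIs, 6.06% of 1172 were lower at day 19 and 1.86% of 6243 at day 13. Type I genes gave a like pattern, with 7 of 15 lower at day 19 and none of 18 at day 13, and medians of -0.93 and -0.34. Without the barcodes of multiplexing tag 2 the day-13 median was -0.01. Among genes with at least 200 UMIs the day-19 type I median was 0.06. Between the days 2 of 16 interferon gamma genes were lower in cDC1, Gbp4 and Igtp, where 10.5% of all 4540 genes were lower. Igtp was at -0.54 without T cell RNA. The interferon gamma list had a median between the days of -0.44 in cDC1 and 0.44 in Cd209a barcodes, and 0.12 over all Cd209a barcodes. In T cell barcodes it was -0.57. Irgm1, an immunity-related GTPase, had day ratios of -0.87 in cDC1 and 0.72 in Cd209a barcodes, a difference of -1.59 (-2.26 to -0.93), and over all Cd209a barcodes the ratio was 0.42. In T cell barcodes it was -0.79, likewise lower at day 19. With contig barcodes kept, the day-19 ratios of Irf1, Irgm1 and Igtp to Cd209a barcodes were -0.65, -0.58 and -0.88, and Gbp2 was at -0.93 among barcodes with at least 80% of their tag UMIs on 1 tag, all within 2-fold. Of the 7 type I genes lower at day 19, Ifit3 was at -2.21 and, with contig barcodes kept, at -0.63. With contig barcodes kept the interferon gamma median between the days was 0.01 in cDC1 and 0.11 in Cd209a barcodes.

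Between the days, 15 of 22 cDC1 genes had a positive ratio in cDC1 and the median was 0.40, with 2 lower past 2-fold, Snx22 and Ly75, and none higher. The share lower is no larger than the 10.5% of all genes. T cell RNA was in 40 of 85 and 2 of 16 members, and in those without it Irf8 was at 1652 and 1695 CPM and the sum of the 30 cDC1 genes at 6983 and 6822 CPM. The median was 0.11 without T cell RNA and -0.24 among barcodes with at least 80% of their tag UMIs on 1 tag, so its sign depended on the barcodes kept. Kit, which is on the list of genes of all dendritic cells, at 65.8 and 142 CPM, passed 2-fold, with a ratio of 1.11 (0.46 to 1.71), but it was at 0.46 without tag 2. Macrophage genes were lower at day 19 in 7 of 10, with a median of -2.40, and in Cd209a barcodes in 8 of 11, with -1.75. Apoe, a lipid carrier, fell from 1417 to 39.1 CPM, and at day 13 it was seen in 20 of 85 members, 1 of which gave 33.9% of its UMIs. Over 5 UMIs of C1qa, C1qb and C1qc were found in 8 members at day 13 and 2 at day 19. Ccr7, the receptor that guides dendritic cells to lymph nodes and is also made by T cells, had 220 UMIs in 19 members at day 13 and 1 UMI at day 19, a log2 ratio of -4.85 (-10.16 to -2.35). In Cd209a barcodes the ratio was -3.27, and in barcodes left out for over 2 Fscn1 UMIs Ccr7 was at 1348 and 4114 CPM. Ccrl2, C1qa, Ifit3b, Ccl2, Cd14 and Pla2g7 were the other genes with the lowest ratios, each with 1 or 2 UMIs at day 19, and their ratios ran from -5.09 (-10.40 to -2.60) for Ccrl2 to -4.15 (-9.47 to -1.65) for Pla2g7. With contig barcodes kept Ccr7 and C1qa were at -0.47 and -0.47, within 2-fold, and the macrophage median was -0.75. That median was -0.72 without barcodes with Mki67 or Top2a, -0.95 with at most 5 C1q UMIs and -1.48 without tag 2. Among the highest ratios were those of Pglyrp1, Mt1, S100a4, Ifitm1, Kctd12, Tnfrsf9 and Gpr141, from 1.31 to 2.50, and 1 barcode gave 91.2% of the day-19 UMIs of Pglyrp1, 71.0% of Mt1 and 100% of Tnfrsf9. Kctd12 was seen in 13 of 16 members, and its ratio was 1.45 (1.04 to 1.85) in cDC1 and 1.19 in Cd209a barcodes. Without tag 2 Kctd12 was at 0.72 and Gpr141 at 0.83 in cDC1, and without tag 1 Mt1 was at 0.31, Pglyrp1 at -0.77 and Tnfrsf9 at -2.43.

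Antibody tags were read on the same droplets. A tag is an antibody with a DNA label, and its level is given as UMIs per 10000 antibody UMIs. CD24 was higher on cDC1, as was its gene: 22.6 per 10000 on cDC1, 11.6 on Cd209a barcodes and 8.00 on T cell barcodes at day 13, and 31.9, 8.68 and 8.20 at day 19. The medians per barcode were 11, 5 and 3 UMIs at day 13. The log2 ratios to Cd209a barcodes were 0.96 (0.81 to 1.11) and 1.88 (1.35 to 2.44). CD11b was lower, at 29.6 and 67.5 per 10000 at day 13 and 31.7 and 57.9 at day 19, with ratios of -1.19 and -0.87. CD5 was lower as well, at -0.82 (-0.93 to -0.71) and -1.02 (-1.44 to -0.60). MHC class II (IA/IE) was at 91.3 and 102 per 10000 at day 13, against 23.2 on T cell barcodes.

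The tags for the 2 proteins of the rule were not higher on cDC1 than on T cells at day 13. XCR1 was at 78.8 per 10000 on cDC1, 92.7 on Cd209a barcodes and 89.3 on T cell barcodes at day 13, and at 96.5, 87.1 and 90.3 at day 19. CD370, the protein of Clec9a, was at 201, 213 and 229 at day 13 and 240.2, 233 and 217 at day 19. The log2 ratio of cDC1 to T cell barcodes was -0.18 (-0.23 to -0.14) and 0.10 (-0.05 to 0.24) for XCR1, and -0.19 (-0.22 to -0.16) and 0.15 (0.05 to 0.24) for CD370. The tag for CD3, the protein of the sort, gave 72.7, 81.4 and 88.2 per 10000 on the 3 kinds of barcode at day 13, so its level on T cells was like that on dendritic cells. Ly6A and CD43, which T cells carry, had log2 ratios of cDC1 to Cd209a barcodes of -0.41 (-0.51 to -0.30) and -0.40 (-0.55 to -0.24) at day 13, and CD11c 0.23 (0.09 to 0.37) and 0.57 (0.13 to 1.02). IgD and CD14 were also among the 5 highest tags, with ratios of 0.61 (0.41 to 0.80) and 0.14 (0.01 to 0.26) at day 13 and 0.40 and 0.29 at day 19, where both intervals held 0. 1 barcode gave 43.5% of the day-13 IgD and 24.2% of the CD14 UMIs on cDC1, and the medians were 4 and 9 UMIs on both kinds of barcode. CD103 (Itgae) was at 42.9 and 48.3 per 10000. Of 136 tags with enough UMIs, 3 were higher on cDC1 past 2-fold at day 13 (2.21%) and 4 lower (2.94%), and at day 19, 2 (1.47%) and 1 (0.735%). CD366 had a log2 ratio of 4.61 (4.54 to 4.69) at day 13, but 1 barcode held 38287 of its 39746 UMIs and the medians were 15 and 14. These UMIs are in the total of 503122 antibody UMIs and lower every other day-13 cDC1 level. CD357 had ratios of -2.72 (-2.86 to -2.59) and -0.46 (-1.09 to 0.15). On Cd209a barcodes it rested on 1 barcode likewise, which held 80.1% of its UMIs.

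**Figure D5:**
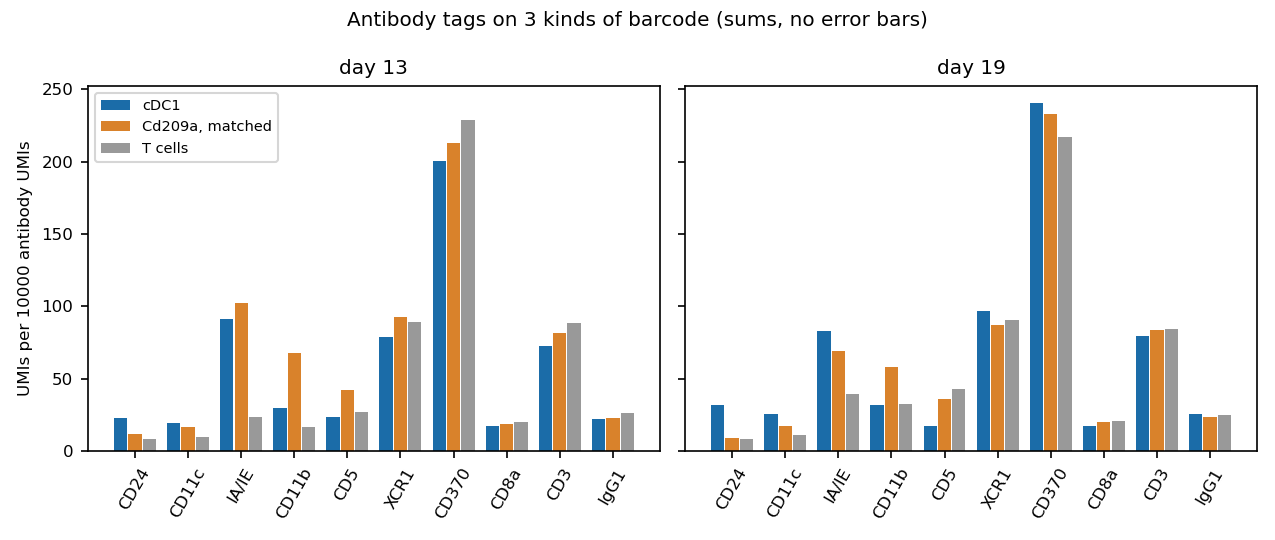
UMIs per 10000 antibody UMIs for 10 tags on cDC1 (blue), depth-matched Cd209a barcodes (orange) and T cell barcodes (grey), at day 13 and day 19; bars are levels of summed UMIs with no error bars, and IgG1 is an isotype control. CD24 is highest on cDC1 and CD11b on Cd209a barcodes, and XCR1, CD370 and CD3 have bars of like height on all 3.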

How the data were processed

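Single-cell 5′ RNA, antibody tags and T cell receptor sequences of CD3-sorted cells of CT2A tumors were measured in 1 droplet capture at day 13 and 1 at day 19. The authors deposited raw UMI counts per gene, antibody tag and multiplexing tag for all barcodes, empty droplets included, and 4 tables of T cell receptor contigs a day. Per the submitters' processing notes, bcl2fastq 2.20, Cell Ranger 4.0.0 and STAR 2.7.5c were used with mm10, and R 4.1.2 and Seurat are named. Barcodes were selected as the opening of the results says, and Cd209a barcodes were paired with cDC1 one to one by total UMIs. UMIs were summed over the barcodes of a group and scaled to 1000000 (CPM). A free-RNA profile was summed from barcodes of 10 to 100 UMIs.

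Ratios carry exact 95% binomial intervals of the counts, shares carry Clopper-Pearson intervals, and differences of 2 log2 ratios carry intervals from the Poisson variance. A sum of 0 was set to a floor of 3 counts over the group. Intervals and floors cover counting error only. With 1 capture a day, and multiplexing tags not tied to the labelled replicates, no test between samples was made. Genes count as past 2-fold where both sums together held at least 50 UMIs. The gene lists and the named genes were set by rule: any list gene, and outside the lists the 8 highest and 8 lowest genes of each comparison with at least 100 UMIs, without ribosomal, mitochondrial, receptor-segment, sex-linked and predicted genes. 1 gene of that rule is not reported here. Antibody tags were named from a list and as the 5 highest and 5 lowest. The members and lists were chosen with earlier results of these data known. 4 listed symbols did not match the files and were not analysed here. For lists of cDC1, cDC2, interferon and cross-presentation genes, promoters were matched by symbol in a RefSeq table of GRCm38.p6.

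No doublet caller was run, and alternatives left out barcodes with RNA of T cells or macrophages or with the highest totals. The multiplexing tags are not tied to the labelled replicates and stand only for parts of a capture. The steps were tested on simulated data. Python 3.11.15, numpy 2.4.6, pandas 2.3.3, scipy 1.17.1 and matplotlib 3.10.9 were used.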

Additional observations from a re-analysis of the deposited data

Results flagged for a closer look

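Barcodes inside the T cell receptor contig tables met every other condition of the rule in 26 cases at day 13 and 15 at day 19. They are 0.317% and 0.353% of the contig barcodes that passed the depth and mitochondrial limits, and the comparisons above do not use them. They stand out because they carry Xcr1 or Clec9a with H2-Ab1 in droplets where a T cell receptor was read, and at day 19 they are nearly as many as the 16 members. Whether such droplets hold more than 1 cell was not tested.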

How the results depend on the processing

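Of 299 recomputed counts and leading list medians, 249 stayed within 1.5 times the reported count, or, for a median, within the median bounds of its genes' intervals, and 50 did not. No list median among these 50 changed sign except the day-19 type I interferon median. At least 3 UMIs of Xcr1 and Clec9a left 56 members at day 13 and 7 at day 19. With that minimum the median of the cDC1 genes against Cd209a barcodes was 2.52 at day 13 and 2.80 at day 19, and the day-13 type I interferon median was -0.60. Without T cell RNA the day-13 cDC2 median was -1.94, and 15 genes were higher and 105 lower at day 19 than at day 13 in cDC1, against 66 and 477. Without Mki67 or Top2a the day-13 cDC2 and type I interferon medians were -1.81 and -0.58, and 38 and 169 genes differed between the days. Thinning to 2000 UMIs tests fewer genes. It left 27 genes higher and 37 lower at day 13, against 141 and 116, 4 and 10 at day 19, against 35 and 71, and 9 and 42 between the days, with a day-13 cDC1 median of 1.33. At least 200 UMIs, which also tests fewer genes, left 28 and 28, 4 and 11, and 7 and 69, with a day-13 cDC1 median of 1.24 and a day-19 type I interferon median of 0.061. Centring on the median of all genes gave 107 genes higher between the days. All Cd209a barcodes of day 19 in place of matched ones gave 93 genes higher and 249 lower, from more UMIs, and a cDC2 median of -1.78. Barcodes with at least 80% of their tag UMIs on 1 tag gave day-13 cDC2 and type I interferon medians of -1.70 and -0.63, and 40 and 114 genes between the days. The next 3 alternatives were added after seeing the data. Leaving out members with 2 Cd209a UMIs gave a day-19 cDC2 median of -1.83. Keeping barcodes of the contig tables gave 71 genes higher and a cDC1 median of 1.38 at day 19, and 152 genes lower between the days. The 3 filters together gave cDC2 medians of -2.64 and -2.04, a day-13 type I interferon median of -0.92, 19 genes higher at day 19, and 17 and 80 genes between the days. Where not stated, the cause was not tested.

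Leaving out the barcodes of 1 multiplexing tag at a time gave 108 to 129 genes higher and 98 to 130 lower at day 13, 28 to 39 and 47 to 86 at day 19, and 41 to 89 and 278 to 501 between the days. The lowest values came without tag 2 between the days and without tag 3 for lower genes at day 19. The cDC1 median ran from 1.60 to 2.13 at day 13 and 1.55 to 2.24 at day 19, the cDC2 median from -1.26 to -1.03 and -1.64 to -0.74, and the type I interferon median from -0.43 to -0.012 and -1.48 to -0.48. Between the days the medians ran from -1.23 to -0.71 for type I interferon, -0.61 to -0.32 for interferon gamma, -0.38 to -0.20 for cross-presentation and -0.22 to 0.18 for MHC class II genes. Thinning left too few genes for the day-19 medians of the cDC1, cDC2 and type I interferon genes and for the interferon gamma median between the days.

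Between the days, of genes named above, Pglyrp1 reversed to -1.06 and Tnfrsf9 to -2.30 with at most 5 C1q UMIs, to -0.67 and -2.10 without the highest UMI totals, and to -0.77 and -2.43 without multiplexing tag 1, and over the 4 tags left out in turn they ran from -0.77 to 2.97 and from -2.43 to 1.99. Tmem176b reversed to -0.37 and Trbc2 to 0.32 with at least 3 UMIs of Xcr1 and Clec9a, and Klk1 to 1.28 and Trac to 0.44 with contig barcodes kept. At day 13 Ube2c reversed to -0.079 with at most 5 C1q UMIs, -0.16 without the highest totals, -0.36 without tag 2 and -0.10 without tag 3. The labels give no replicate numbers for barcodes, and the groups were chosen by the rule, so no test with a replicate block was made. Within the 4 tags of the day-13 capture cDC1 and Cd209a barcodes could be compared as a description. The medians ran from 1.60 to 2.39 for cDC1 genes, -1.47 to -0.99 for cDC2 genes, -0.61 to 0.10 for type I interferon, -0.58 to 0.13 for interferon gamma, 0.049 to 0.27 for cross-presentation and -0.32 to 0.21 for MHC class II genes. Of the 17 cDC1 genes called higher 16 were higher in all 4 tags, all but Ly75, and of the 9 cDC2 genes called lower 7 were lower in all 4, all but Sirpa and Mgl2.

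Other calls of single genes were lost too. With contig barcodes kept Ly75 was at 0.80 at day 13 and -0.0076 between the days, and S100a4 and Ifi44 were at 0.98 and -0.90 between the days. Without T cell RNA Rab43 was at 0.83 at day 13, and Ifitm1 and Mt1 at 0.57 and 0.20 between the days. Without Mki67 or Top2a Dnase1l3 was at 0.72 at day 13 and Jaml at 0.63 at day 19. Among barcodes with at least 80% of their tag UMIs on 1 tag Cybb was at -0.70 at day 19. Against all Cd209a barcodes Ifi205 was at 0.94 at day 13 and Ccl6 at -0.92 at day 19. Under the 3 filters together Kctd12 was at 0.41 between the days. With at least 3 UMIs of Xcr1 and Clec9a Acadl was at 0.38 at day 19 and Gpr141 at 0.78 between the days. With the same minimum the day ratio of Kit was 0.34. Depth limits single genes most at day 19, where a gene without a UMI may have been at up to 14.7 CPM.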
